A study of Mus musculus with 28 samples.

Results

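Bcl6, Bach2 and Bcor encode repressors, or partners of repressors, that act in germinal center and memory B cells. They were taken from the expression tables by their symbols, and all 3 were found among the 23382 gene symbols listed for each library. The study profiled germinal center B cells of mice by RNA-seq, in 28 libraries. All libraries carried the Cg1Cre(+/-) allele, in which Cre recombinase is made from the immunoglobulin gamma 1 constant-region locus in B cells that respond to antigen. The compared groups were Cg1Cre(+/-)_Tbl1xr1(D370Y/WT) (called D370Y, 5 libraries) against Cg1Cre(+/-)_Tbl1xr1(WT/WT) (called WT, 3), ImuBCL6_Cg1Cre(+/-)_Tbl1xr1(D370Y/WT) (ImuBcl6 D370Y, 5) against ImuBCL6_Cg1Cre(+/-)_Tbl1xr1(WT/WT) (ImuBcl6, 5), and Cg1Cre(+/-)_Tbl1xr1(KO/KO) (KO, 5) against its own Cre control (5). This control and WT have 1 genotype label in common, but their protocol texts differ, so they were kept apart. D370Y is a heterozygous single-residue change in Tbl1xr1, and ImuBcl6 is an allele that drives BCL6 from a promoter of the immunoglobulin heavy-chain locus in B cells. By symbol, reads from that allele and from the cells' own Bcl6 gene cannot be told apart. No age or treatment is given in the labels, and none ties a library to an animal, so p-values measure the spread between these libraries, which may be technical in part.

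BCL6 is a zinc-finger repressor that germinal center B cells need, and its BTB domain recruits the SMRT/NCOR corepressor complex and BCOR. TBL1XR1, the protein altered in the D370Y and KO groups, belongs to the SMRT/NCOR complex, in which it is a WD40-repeat protein. BCOR is the scaffold of PRC1.1, a variant Polycomb complex that ubiquitinates histone H2A. BACH2 is a basic leucine zipper repressor that pairs with small MAF proteins, holds down Prdm1, the plasma cell regulator, and is known for its part in germinal center and memory B cell formation.

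Bcl6 (ENSMUSG00000022508.5) lies on chromosome 16 from 23965052 to 23988852, minus strand. Bach2 (ENSMUSG00000040270.16) lies on chromosome 4 from 32238804 to 32586108, plus strand, and Bcor (ENSMUSG00000040363.15) on the X chromosome from 12036740 to 12160355, minus strand (GRCm38, GENCODE M21). The 250 bases before 2 RefSeq starts of Bcl6 (GRCm38.p6) are shown because BCL6 is known to bind its own promoter and Bcl6 is the gene that the ImuBcl6 allele adds to. The 250 bases before a start of Bcor are shown because Bcor varied together with Bcl6 between libraries. Sequences run 5' to 3' on the gene's strand. Capitals mark matches to TTCNNNGAA, the letters of a STAT site, searched on both strands. The BCL6 motif TTCCTNGAA, or TTCNAGGAA on the other strand, is contained in those letters.
Bcl6, upstream of its first exon, chr16:23988853-23989102, minus strand: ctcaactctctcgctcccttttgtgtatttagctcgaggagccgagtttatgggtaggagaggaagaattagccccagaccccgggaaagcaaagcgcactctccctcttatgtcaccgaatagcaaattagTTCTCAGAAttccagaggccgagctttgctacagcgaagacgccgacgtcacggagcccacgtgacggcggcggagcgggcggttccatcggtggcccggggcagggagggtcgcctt
Bcl6, start inside the gene and in no exon of it, chr16:23981284-23981533, minus strand: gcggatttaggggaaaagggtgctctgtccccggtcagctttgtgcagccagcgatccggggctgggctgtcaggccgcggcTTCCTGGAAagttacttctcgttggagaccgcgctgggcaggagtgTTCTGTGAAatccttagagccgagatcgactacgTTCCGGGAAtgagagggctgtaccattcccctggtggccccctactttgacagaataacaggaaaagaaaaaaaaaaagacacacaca
Bcor, upstream of its first exon, chrX:12160356-12160605, minus strand: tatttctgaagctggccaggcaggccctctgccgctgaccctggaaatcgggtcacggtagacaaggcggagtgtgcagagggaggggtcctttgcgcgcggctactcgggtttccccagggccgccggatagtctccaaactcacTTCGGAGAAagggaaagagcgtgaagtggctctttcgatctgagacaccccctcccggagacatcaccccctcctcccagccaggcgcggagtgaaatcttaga
The start inside Bcl6 carries the BCL6 motif as TTCCTGGAA at position -168, counted from the start, and 2 more STAT matches at -122 and -88. The outer Bcl6 start has 1 STAT match, TTCTCAGAA at -118, and the Bcor start has 1, TTCGGAGAA at -104. The Bach2 start, whose sequence is not shown, also has 1, TTCGTTGAA at -140, so the STAT letters do not set Bcl6 and Bcor apart from Bach2. Among 32851 RefSeq windows of the same kind (250 bases before to 50 after a start), 1.59% held the BCL6 motif and 8.3% the STAT letters. TGANTCA, the core shared by BACH and AP-1 sites, is in 7.81% of the windows and in none of the 5 windows of Bcl6, Bach2 and Bcor. A match describes letters and shows no binding.

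The libraries held 19.0 to 37.7 M reads on listed genes, and values are CPM as deposited, which are reads on a gene relative to the library's total. Listed genes made up 64.4% of the denominator in KO replicate 3 and 78.7% to 84.6% in the other 27 libraries. Each of Bcl6, Bach2 and Bcor had at least 3158 reads in every library. Xist, the RNA of the inactive X chromosome, was at 50 CPM or more in 5 of 5 D370Y and 0 of 3 WT libraries, in 0 of 5 ImuBcl6 D370Y and 5 of 5 ImuBcl6 libraries, and in 2 of 5 KO and 4 of 5 Cre control libraries. Sex is read here from Xist alone. In the D370Y and ImuBcl6 D370Y comparisons, sex and genotype cannot be told apart. The same holds for ImuBcl6 against WT and for ImuBcl6 D370Y against D370Y. Tbl1xr1 itself averaged 102.0 ± 15.4 CPM in the libraries labelled KO and 86.0 ± 5.82 CPM in the Cre control (SD, n = 5 each), a log2 difference of 0.23 ± 0.11 (SE) that did not pass (limma adjusted p = 0.527), so its level did not check the KO label. The labels do not give the deleted part of the gene.

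Bcl6 had overlapping levels in the 4 groups without ImuBcl6 and was higher in both ImuBcl6 groups, less so where Tbl1xr1 carried D370Y. It measured 383.1, 328.2, 342.6, 399.2 and 359.9 CPM in D370Y cells, against 358.0, 366.1 and 363.8 CPM in WT cells. The WT libraries lie inside the D370Y range. The difference in log2(CPM + 1) was -0.0037 ± 0.073 (SE), with a 95% interval of -0.16 to 0.15 and a limma adjusted p of 0.988. In this comparison 376 of 10600 tested genes, or 3.55%, passed an adjusted p below 0.05, and none of Bcl6, Bach2 and Bcor was among them.

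With ImuBcl6, Bcl6 was lower in D370Y cells. It measured 434.6, 462.5, 422.3, 511.7 and 504.1 CPM in ImuBcl6 D370Y cells, against 547.2, 546.0, 589.7, 543.9 and 522.3 CPM in ImuBcl6 cells. Every ImuBcl6 D370Y library was below every ImuBcl6 library. Bcl6 fell by a log2 difference of -0.24 ± 0.063 (95% interval -0.37 to -0.10, adjusted p = 0.0344), a fold of 0.848. Groups of this comparison did not overlap for 8.96% of tested genes, and 882 of 10784, or 8.18%, were called. The call is near the threshold: the adjusted p was over 0.05 without any 1 of ImuBcl6 D370Y replicates 1, 2 and 3 or ImuBcl6 replicates 2, 3 and 4, reaching 0.103, and was 0.0506 with edgeR and 0.210 in a fit of all 6 groups with a term for Xist status.

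In the libraries labelled KO, Bcl6 measured 374.5, 406.6, 325.4, 337.1 and 360.9 CPM, against 308.0, 346.3, 367.2, 357.7 and 368.7 CPM in the Cre control. The groups overlap. They differed in log2 by 0.044 ± 0.10 (95% interval -0.17 to 0.26, adjusted p = 0.933), in a comparison that called 146 of 10514 genes, or 1.39%. The interval holds changes of either sign. Without KO replicate 3 the difference was 0.081 and 449 genes were called. In that library 64.4% of the CPM denominator was on listed genes. With all libraries, the Bcl6 difference was 0.107 with CPM over reads on listed genes and 0.114 with TMM scaling. It was 0.117 with edgeR and 0.115 with DESeq2, and none of these was called.

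**Figure D1:**
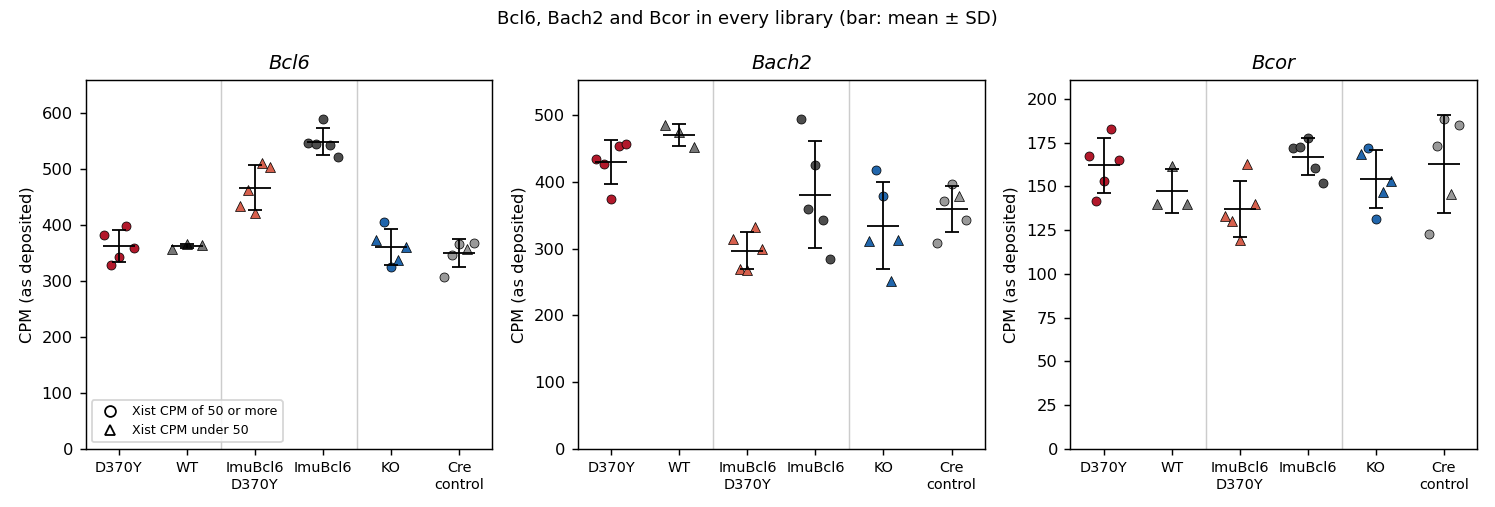
CPM (y axis, linear, from 0) of Bcl6, Bach2 and Bcor in each of the 28 libraries by group, with the mean and SD as a bar. Circles are libraries with Xist at 50 CPM or more and triangles those under it. Bcl6 stands highest in the ImuBcl6 libraries, Bach2 spreads widest in ImuBcl6 and KO, and the Bcor groups all overlap with their neighbours in level.

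Bach2 was lowest in ImuBcl6 D370Y cells, but no allele comparison called it. It measured 434.1, 426.1, 375.0, 454.0 and 457.1 CPM in D370Y cells, against 484.8, 475.0 and 452.4 CPM in WT cells. The upper D370Y libraries reach into the WT range. On the log2 scale the difference was -0.14 ± 0.074 (95% interval -0.30 to 0.03, adjusted p = 0.358).

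In ImuBcl6 D370Y cells Bach2 measured 313.9, 270.0, 267.9, 333.0 and 299.2 CPM, against 493.8, 359.3, 425.3, 342.4 and 284.2 CPM in ImuBcl6 cells. ImuBcl6 replicate 5 lies inside the ImuBcl6 D370Y range and the other 4 ImuBcl6 libraries lie above it. The log2 difference was -0.34 ± 0.12 (95% interval -0.61 to -0.07, adjusted p = 0.114), and without ImuBcl6 replicate 5 it was -0.44 with an adjusted p of 0.0244. The ImuBcl6 libraries had a coefficient of variation of 21.2% for Bach2, against 4.46% for Bcl6 and 6.36% for Bcor in the same libraries.

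In the libraries labelled KO, Bach2 measured 311.6, 417.5, 379.2, 251.9 and 312.3 CPM, against 308.4, 370.8, 397.4, 378.1 and 342.5 CPM in the Cre control. The KO range encloses the Cre control range. The log2 difference was -0.12 ± 0.13 (95% interval -0.40 to 0.16, adjusted p = 0.886), beside a median of -0.061 over all tested genes. It was -0.057 with CPM over reads on listed genes, -0.050 with TMM scaling and -0.015 with edgeR, none of them called. The 2 KO libraries with Xist at 50 CPM or more, replicates 2 and 3, were at 379.2 and 417.5 CPM, and the 3 under it at 251.9 to 312.3 CPM. The log2 difference between KO and Cre control was 0.17 among libraries with Xist (2 against 4) and -0.38 among those without (3 against 1). A term for Xist status in the fit of these 10 libraries was 0.23 ± 0.13 for Bach2 (adjusted p = 0.302, 5 of 10514 genes called). A fit of all 6 groups with that term, which rests on the KO and Cre control libraries alone, gave Bach2 differences of -0.37 for D370Y against WT and -0.11 for ImuBcl6 D370Y against ImuBcl6, neither of them called.

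Bcor was lower in ImuBcl6 D370Y than in ImuBcl6 cells and passed in neither of the other allele comparisons. It measured 167.3, 141.5, 153.0, 182.9 and 165.1 CPM in D370Y cells, against 140.0, 161.7 and 140.0 CPM in WT cells. The ranges overlap. The log2 difference was 0.13 ± 0.087 (95% interval -0.05 to 0.32, adjusted p = 0.436).

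In ImuBcl6 D370Y cells Bcor measured 133.1, 130.1, 119.2, 162.7 and 140.2 CPM, against 171.7, 172.8, 177.9, 160.5 and 151.7 CPM in ImuBcl6 cells. ImuBcl6 D370Y replicate 4 stands among the ImuBcl6 libraries and the other 4 lie below them. Bcor fell by a log2 difference of -0.29 ± 0.078 (95% interval -0.46 to -0.12, adjusted p = 0.0396), a fold of 0.819. Its call was kept without ImuBcl6 D370Y replicate 4 or ImuBcl6 replicate 5 and lost without any 1 of the other 8 libraries, at adjusted p-values of up to 0.111, and it was lost with edgeR at 0.0519. Bcl6 and Bcor were thus 2 of 3 genes called in a comparison with 5.38% of genes called lower. They also varied together between libraries of the same group (r = 0.842), so the 2 calls are not separate results, and both are near the threshold.

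In the libraries labelled KO, Bcor measured 168.5, 171.7, 131.6, 146.6 and 153.0 CPM, against 122.8, 173.2, 188.4, 145.8 and 184.9 CPM in the Cre control. The KO libraries lie inside the Cre control range. The log2 difference was -0.068 ± 0.13 (95% interval -0.33 to 0.20, adjusted p = 0.917). It was -0.0054 with CPM over reads on listed genes, 0.0017 with TMM scaling and -0.012 with edgeR, none of them called. Bcor is an X-linked gene, and in both allele comparisons whose groups differ wholly in Xist its mean was the higher one in the group with Xist. Within the KO comparison the term for Xist status was 0.04 ± 0.14 for Bcor (adjusted p = 0.870). A fit of all 6 groups with that term gave Bcor differences of 0.094 for D370Y against WT and -0.25 for ImuBcl6 D370Y against ImuBcl6 (adjusted p = 0.770 and 0.329).

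Whether the D370Y effect differed with ImuBcl6 was tested as a difference of the log2 differences. With ImuBcl6 minus without, it was -0.23 ± 0.096 for Bcl6 (adjusted p = 0.327), -0.20 ± 0.16 for Bach2 (0.647) and -0.42 ± 0.12 for Bcor (unadjusted p = 0.00246, adjusted p = 0.130). None passed, in a contrast with 74 of 11166 genes called, or 0.663%. Without ImuBcl6 the D370Y group was the one with Xist, and with ImuBcl6 it was the control. Sex and background therefore cannot be told apart in this contrast. In the fit of 6 groups with Xist status, Bach2 was at 0.26 and 4 genes were called. The 95% interval for Bcor was -0.68 to -0.17. The KO effect minus the D370Y effect was 0.048 for Bcl6, 0.016 for Bach2 and -0.20 for Bcor, with adjusted p-values of 0.9999 and 16 of 11041 genes called (0.145%). The KO effect minus the ImuBcl6 D370Y effect was 0.28 ± 0.11 for Bcl6 (adjusted p = 0.687), 0.22 ± 0.18 for Bach2 (0.836) and 0.22 ± 0.15 for Bcor (0.814), with 13 of 11010 genes called (0.118%).

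The ImuBcl6 allele itself was compared between groups that also differ wholly in Xist and in depth. Reads on listed genes were 31.8 to 36.5 M in ImuBcl6 and 32.0 to 37.7 M in ImuBcl6 D370Y libraries. They were 19.0 to 19.4 M in WT and 19.2 to 22.2 M in D370Y libraries. The allele, Xist status and whatever goes with depth cannot be told apart there. Bcl6 averaged 549.8 ± 24.5 CPM in ImuBcl6 (SD, n = 5) and 362.6 ± 4.18 CPM in WT cells (n = 3), a fold of 1.51 (log2 difference 0.60 ± 0.054, adjusted p = 6.02e-06), with no overlap. It averaged 467.0 ± 40.1 CPM in ImuBcl6 D370Y and 362.6 ± 28.9 CPM in D370Y cells (n = 5 each), a fold of 1.29 (0.36 ± 0.074, adjusted p = 0.000869), again with no overlap. The ImuBcl6 comparison with WT called 53.3% of tested genes (24.7% higher, 28.6% lower) and the one with D370Y 54% (21.8% higher, 32.2% lower), and groups did not overlap for 52.29% and 39.68% of genes, so a call or a gap is common there. Cre control and WT, which share a genotype label, differed at 77.2% of genes (38.3% higher and 38.9% lower in Cre control) with no labelled allele difference.

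Bach2 averaged 296.8 ± 28.1 CPM in ImuBcl6 D370Y and 429.3 ± 33.0 CPM in D370Y cells, without overlap (fold 0.691, log2 difference -0.53 ± 0.076, adjusted p = 5.06e-05). It averaged 381.0 ± 80.6 CPM in ImuBcl6 and 470.7 ± 16.6 CPM in WT cells (-0.33 ± 0.14, adjusted p = 0.0721, or 0.00544 without ImuBcl6 replicate 1). In the limma fit of 6 groups with Xist status, Bach2 did not pass in ImuBcl6 D370Y against D370Y (-0.30, adjusted p = 0.192). In that fit it passed in ImuBcl6 against WT (-0.56, 0.0132). Between Cre control and WT, however, Bach2 also differed, at 359.4 ± 34.7 and 470.7 ± 16.6 CPM (-0.39 ± 0.070, adjusted p = 0.00016). Bcor gave 0.18 ± 0.074 for ImuBcl6 against WT (adjusted p = 0.0573) and -0.24 ± 0.087 for ImuBcl6 D370Y against D370Y (adjusted p = 0.0297), each with its higher mean in the group with Xist. The first passed without WT replicate 2 (0.0279) or ImuBcl6 replicate 5 (0.0242). The second kept its call without 4 of the 10 libraries and lost it without D370Y replicates 1, 4 or 5 or ImuBcl6 D370Y replicates 1, 2 or 3 (up to 0.0807). Both comparisons share their libraries with the D370Y comparisons above.

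From low to high, the mean of Bcl6 ran from Cre control through KO, D370Y and WT to ImuBcl6 D370Y and ImuBcl6, and neighbours overlap among the 4 groups without ImuBcl6. Bach2 ran from ImuBcl6 D370Y through KO, Cre control, ImuBcl6 and D370Y to WT, and Bcor from ImuBcl6 D370Y through WT, KO, D370Y and Cre control to ImuBcl6. All neighbours in the Bach2 and Bcor orders overlap.

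**Figure D2:**
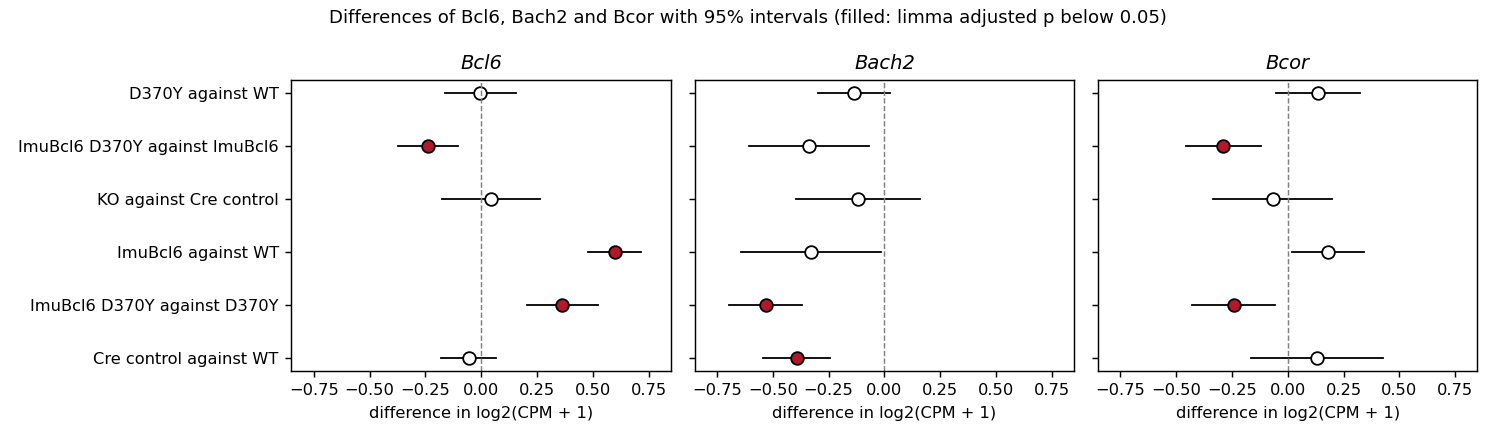
Differences in log2(CPM + 1) (x axis) of Bcl6, Bach2 and Bcor in 6 comparisons, with 95% intervals. Filled points passed a limma adjusted p below 0.05, and among the 3 allele comparisons at the top these are Bcl6 and Bcor in ImuBcl6 D370Y against ImuBcl6.

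Libraries of the same group also differed from each other, and there Bcl6 and Bcor moved together. After subtracting each group's mean, Pearson's r over the 28 libraries was 0.842 between Bcl6 and Bcor, 0.478 between Bcl6 and Bach2 and 0.443 between Bach2 and Bcor. These values describe libraries that share groups, preparation and sequencing, and carry no p. Among 8443 genes with a mean of at least 5 CPM, those most like Bcl6 were Zc3h4 (0.908), Prrc2a (0.878), Numa1 (0.870), Ehmt1 (0.868) and Wipf1 (0.868). Bcor was closest to Zc3h4 (0.928), Phc1 (0.846), Bcl6 (0.842), Ehmt1 (0.832) and Sp2 (0.830). EHMT1 is a histone H3 lysine methyltransferase and PHC1 a subunit of canonical PRC1. Bach2 had another set, Kansl1 (0.904), Setd5 (0.902), Foxn3 (0.895), Ncoa1 (0.893) and Hivep2 (0.890).

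**Figure D3:**
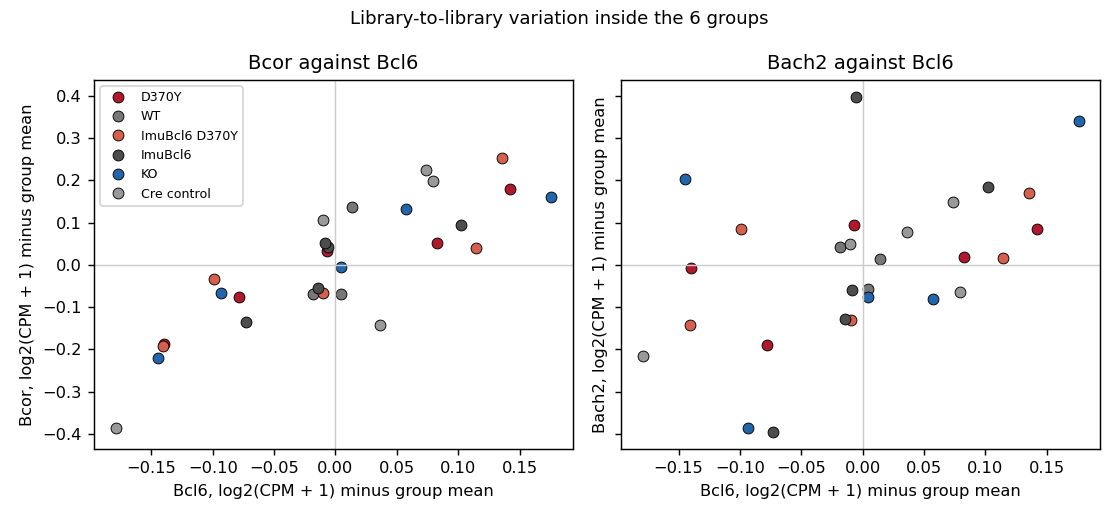
Deviation of each of the 28 libraries from its group's mean in log2(CPM + 1), Bcor against Bcl6 at left and Bach2 against Bcl6 at right, coloured by group. The Bcor points follow a rising band (r = 0.842), and the Bach2 points scatter more widely (r = 0.478).

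Corepressor subunits were counted beside all tested genes, of which 3.55%, 8.18% and 1.39% passed in the D370Y, ImuBcl6 D370Y and KO comparisons. At those shares, lists this short would hold few or no called genes. In the SMRT/NCOR complex 0 of 6 tested members passed in D370Y against WT, 1 fell in ImuBcl6 D370Y against ImuBcl6 and 0 passed in KO against Cre control, with list medians of -0.048, -0.088 and -4e-04 on the log2 scale, beside -0.016, -0.0083 and -0.061 over all tested genes. With ImuBcl6, 5.38% of all tested genes fell, and the complex's count was 0 to 2 without 1 library. The member that fell was Tbl1xr1, at 98.3 ± 2.43 CPM in ImuBcl6 D370Y and 128.1 ± 20.6 CPM in ImuBcl6 cells (-0.37 ± 0.090, adjusted p = 0.0261). This call was lost, at adjusted p-values of up to 0.0785, without any 1 of ImuBcl6 D370Y replicates 2, 3 and 5 or ImuBcl6 replicates 2 and 3, and at 0.381 in the fit of 6 groups with Xist status, where the difference was -0.19. With no filter on low values the adjusted p was 0.0544. In D370Y against WT, Tbl1xr1 was at -0.21 (adjusted p = 0.166) and Gps2, another subunit, at -0.13 (0.340). In KO against Cre control, Tbl1xr1 was at 0.23 (0.527).

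Of the 10 other PRC1.1 genes, 0 passed in any of the 3 allele comparisons, beside 3.55%, 8.18% and 1.39% of all tested genes. The list medians were -0.12, -0.0065 and -0.096. Rnf2, the catalytic ubiquitin ligase, was at -0.21 in D370Y against WT (adjusted p = 0.232), where Rybp, which binds it, was at -0.21 (0.322). Rybp was at -0.26 in ImuBcl6 D370Y against ImuBcl6 (0.150, or 0.0363 without ImuBcl6 D370Y replicate 2) and at -0.31 in KO against Cre control (0.220). Kdm2b, the CpG-binding subunit, was at -0.23 in ImuBcl6 D370Y against ImuBcl6 (0.0583, and past the threshold with DESeq2 at 0.0302 and without ImuBcl6 D370Y replicate 4 or ImuBcl6 replicate 1). Cbx8 was at -0.21 in KO against Cre control (0.722).

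Among relatives and partners of BCL6, 6 of 7 genes were tested, and 1 fell, where 5.38% of all genes fell: Hdac7, a class II histone deacetylase, at 132.4 ± 15.4 CPM in ImuBcl6 D370Y and 162.6 ± 14.7 CPM in ImuBcl6 cells (-0.30 ± 0.086, adjusted p = 0.04998). That call was lost with CPM over reads on listed genes (0.0658), TMM (0.0636), a pseudocount of 0.1 (0.0504), no filter (0.0911) and edgeR (0.0657). It was also lost in the fit of 6 groups with Xist status (0.362) and without any 1 of 7 libraries (ImuBcl6 D370Y replicates 1, 2 and 3 and ImuBcl6 replicates 2 to 5, up to 0.136). The medians were -0.011, -0.062 and -0.061. Mta3, of the NuRD complex, was at -0.19 in D370Y against WT (0.215) and at -0.19 in KO against Cre control (0.706), where Hdac4 was at -0.086 (0.897), against -0.074 (0.726) in D370Y against WT. Among relatives and partners of BACH2, 0 of 5, 0 of 6 and 0 of 6 tested genes passed, beside 3.55%, 8.18% and 1.39% of all tested genes. Their medians were 0.060, -0.049 and -0.10. Nfe2l2, an activator that binds like elements, was at -0.20, -0.16 and -0.22 in the D370Y, ImuBcl6 D370Y and KO comparisons (0.123, 0.258 and 0.542). Bach1, the closest relative of Bach2, was at 0.16 and 0.15 in the D370Y and ImuBcl6 D370Y comparisons (0.263 and 0.482), and Nfe2l1 at -0.14 in KO against Cre control (0.805).

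Of 10 factors known upstream of Bcl6 or Bach2, 1 rose in D370Y against WT, where 2.6% of genes rose. Irf4, which represses Bcl6 in cells that leave the germinal center, averaged 87.3 ± 11.4 CPM in D370Y and 60.2 ± 1.53 CPM in WT cells (0.52 ± 0.092, adjusted p = 0.00779, 0.0521 without WT replicate 2 and 0.192 in the fit of 6 groups with Xist status). It was at 0.017 in ImuBcl6 D370Y against ImuBcl6 (0.962) and at -0.048 in KO against Cre control (0.923). Foxo1, a dark zone transcription factor, fell with ImuBcl6 D370Y, at 161.2 ± 12.2 CPM against 196.2 ± 16.1 CPM in ImuBcl6 cells (-0.28 ± 0.071, adjusted p = 0.0276, beside 5.38% of all genes lower, lost with Xist status in the fit of 6 groups at 0.202 and without ImuBcl6 D370Y replicate 3 at 0.0662 or ImuBcl6 replicate 3 at 0.0845). The Foxo1 call was also lost with no filter on low values (0.0504). No factor passed in KO against Cre control, where Mef2b was at -0.32 (0.433) and Stat3 at -0.25 (0.483). The list medians were -0.015, -0.032 and -0.060.

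Genes known to be repressed by BCL6 rose in part under each allele. Of 18 tested, 6 rose and 0 fell in D370Y against WT, where 2.6% of genes rose and 0.943% fell. In the fit of 6 groups with Xist status 2 of the 18 rose there, Ccnd2 and S1pr1, and with DESeq2 1 fell. In ImuBcl6 D370Y against ImuBcl6, 4 rose and 2 fell, beside 2.8% and 5.38% of all genes (302 higher and 580 lower, or 359 and 446 with CPM over reads on listed genes). The count of 2 that fell was 1 with listed genes, TMM, no filter, edgeR or the fit of 6 groups, and 0 with Xist status in that fit. It was 0 without ImuBcl6 D370Y replicate 3 or ImuBcl6 replicate 3, 2 without ImuBcl6 D370Y replicate 4 or ImuBcl6 replicate 1, and 1 without any other library. In KO against Cre control, 3 rose and 0 fell, beside 0.476% and 0.913% (50 higher and 96 lower, or 114 and 122 on that scale), and 1 fell with DESeq2 or with Xist status as a term. The list medians were 0.11, 0.086 and 0.047. The lists were chosen with earlier results of these data known, so their direction is no independent evidence.

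Gpr183 and S1pr1, receptors that guide B cells out of the follicle center and into the circulation, rose in all 3 allele comparisons. Gpr183 averaged 31.3 ± 3.34 CPM in D370Y and 17.2 ± 1.22 CPM in WT cells (0.82 ± 0.090, adjusted p = 0.000381, and 0.103 in the fit of 6 groups with Xist status). It averaged 19.6 ± 5.43 CPM in ImuBcl6 D370Y and 7.95 ± 1.01 CPM in ImuBcl6 cells (1.17 ± 0.16, 0.00141), and 19.2 ± 1.87 CPM in KO against 11.9 ± 1.22 CPM in Cre control cells (0.65 ± 0.10, 0.00221). S1pr1 differed by 0.87 ± 0.075, 0.68 ± 0.10 and 0.65 ± 0.11 in the same order (adjusted p = 5.31e-05, 0.00240 and 0.00302). Bcl2, the antiapoptotic gene, rose by 0.72 ± 0.11, 1.08 ± 0.14 and 0.56 ± 0.13 (0.00393, 0.00125 and 0.0336). Its KO call was lost without any 1 of KO replicates 1, 2 and 4 or Cre control replicates 1 to 4, at up to 0.124. It was also lost with CPM over reads on listed genes (0.054) and with no filter on low values (0.103).

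Ccnd2, cyclin D2, averaged 46.1 ± 9.95 CPM in D370Y and 16.7 ± 0.582 CPM in WT cells (1.38 ± 0.15, adjusted p = 0.000616). It was at 0.41 ± 0.14 in ImuBcl6 D370Y against ImuBcl6 (0.0882) and at 0.068 ± 0.093 in KO against Cre control (0.898), and the difference from the D370Y effect passed in both cases (0.0494 and 0.000453). Sex and genotype cannot be told apart in the D370Y effects that enter these differences. Cdkn1b, a cyclin-dependent kinase inhibitor, rose in ImuBcl6 D370Y cells, to 11.3 ± 1.1 CPM against 7.83 ± 0.856 CPM in ImuBcl6 cells (0.48 ± 0.093, adjusted p = 0.00831). In the fit of 6 groups with Xist status it was at 0.20 and did not pass (0.417). The members that fell there, with the count's limits given above, were Ep300 (-0.39, 0.0210), a histone acetyltransferase, and Trp53 (-0.28, 0.0387), which encodes p53. Atr, a DNA damage kinase, was the sixth member that rose in D370Y against WT (0.35 ± 0.078, 0.0254).

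Prdm1 is a target of both BCL6 and BACH2. It averaged 25.3 ± 9.05 CPM in D370Y and 11.2 ± 3.22 CPM in WT cells (1.07 ± 0.26, adjusted p = 0.0466), and that call was lost with edgeR (0.0527), in the fit of 6 groups with Xist status (0.243) and on leaving out any library other than D370Y replicate 5 (up to 0.194). A pseudocount of 0.1 (0.0510) or no filter on low values (0.0939) lost the call as well. Prdm1 was at 0.17 in ImuBcl6 D370Y against ImuBcl6 (0.607) and at 0.14 in KO against Cre control (0.892). Prdm1 was the 1 gene called of 9 tested targets of BACH factors in D370Y against WT, and 0 of 9 passed in the other 2 comparisons. Of all tested genes, 3.55%, 8.18% and 1.39% passed in the D370Y, ImuBcl6 D370Y and KO comparisons. The list medians were 0.039, -0.0083 and -0.053 in that order. In ImuBcl6 D370Y against ImuBcl6, Cdkn2a was at 0.55 ± 0.21 (0.122), and it passed with DESeq2 (0.70, 0.0412). Cdkn1a was at -0.24 (0.381) there, and in KO against Cre control Cdkn1a was at -0.25 (0.705) and Cebpb at -0.19 (0.853).

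**Figure D4:**
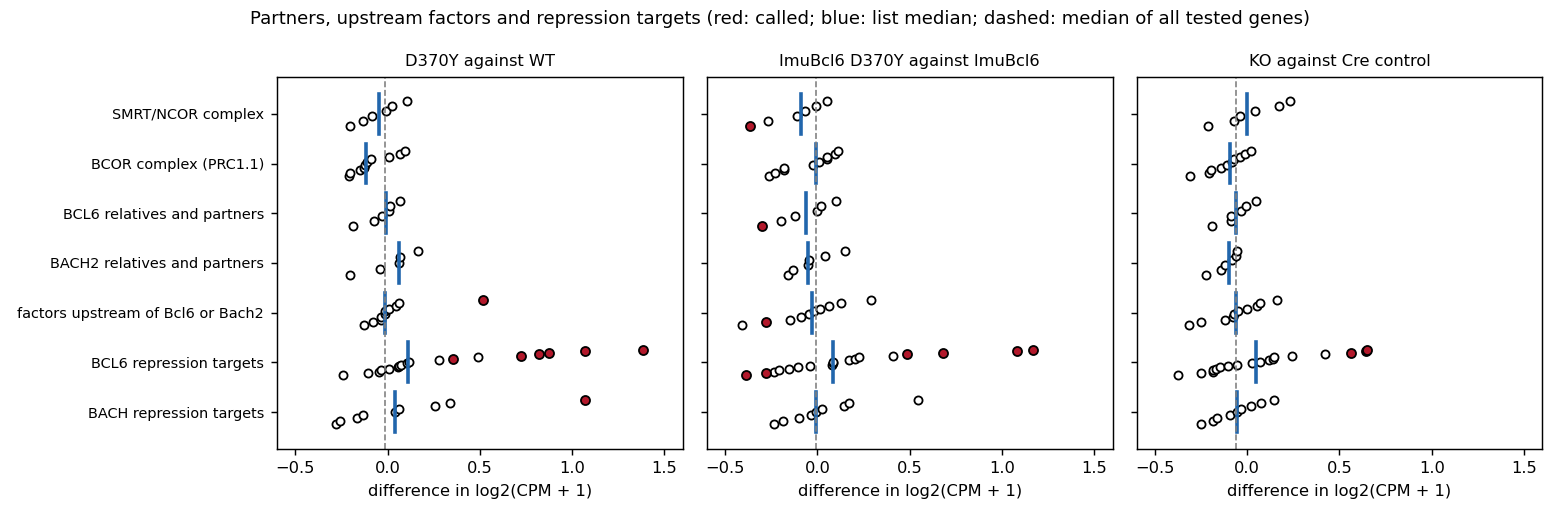
Differences in log2(CPM + 1) (x axis) of the tested members of 7 lists in the 3 allele comparisons. Red points passed a limma adjusted p below 0.05, the blue bar is the list's median and the dashed line the median of all tested genes. The red points lie mostly among the BCL6 repression targets.

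Markers of other B cell states and of other cells moved alongside. Of 12 germinal center markers, none was at 0 throughout any group, 0 rose and 5, 3 and 2 fell in the D370Y, ImuBcl6 D370Y and KO comparisons, Gcsam (listed as Gcet2) in each of them, where 0.943%, 5.38% and 0.913% of all genes fell. Their summed level was 2987 to 3198 CPM in D370Y and 3609 to 3792 CPM in WT libraries, 1983 to 2608 CPM in ImuBcl6 D370Y and 2835 to 3063 CPM in ImuBcl6 libraries, and 2054 to 2733 CPM in KO and 2862 to 3182 CPM in Cre control libraries. Of 9 tested naive B cell markers, several of which memory B cells also express, 4, 6 and 3 rose and 0 fell, where 2.6%, 2.8% and 0.476% of all genes rose, with summed levels of 1286 to 2050 against 1185 to 1366 CPM, 981 to 1160 against 669 to 815 CPM, and 715 to 957 against 592 to 679 CPM. Of 6 B cell markers 0 passed in any of the 3.
Beside those same shares, myeloid markers rose at 6 of 10 tested genes in D370Y (summed level 122 to 142 CPM, against 71.6 to 86.8 CPM in WT), at 5 of 8 in ImuBcl6 D370Y (167 to 249 CPM, against 122 to 165 CPM in ImuBcl6) and at 0 of 10 in KO (106 to 227 CPM, against 127 to 179 CPM in Cre control). T cell markers rose at 2 of 5 (Cd3g and Cd2) in ImuBcl6 D370Y (summed level 180 to 227 CPM, against 127 to 154 CPM in ImuBcl6). They passed at 0 of 4 in D370Y (144 to 178 CPM, against 140 to 143 CPM in WT) and at 0 of 5 in KO (129 to 294 CPM, against 153 to 191 CPM in Cre control). Plasma cell markers rose at 2 of 8 in D370Y against WT (Prdm1 and Irf4), passed at 0 of 7 with ImuBcl6 and fell at 1 of 8 in KO (Tent5c, listed as Fam46c). Pecam1 rose among 2 tested stromal and endothelial markers in ImuBcl6 D370Y. The erythroid markers Hba-a1 and Hba-a2 were at 0 in every library, but other genes of that list were not. Summed erythroid levels were 3.09 to 45.7 CPM in KO and 2.79 to 9.56 CPM in Cre control libraries. In the other groups they reached at most 9.93 CPM, in ImuBcl6 D370Y. In bulk RNA, fewer cells of a type and less RNA per cell cannot be told apart. The part of these marker shifts in the values of Bcl6, Bach2, Bcor and their targets was not tested.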

How the data were processed

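RNA-seq of mouse germinal center B cells was deposited by the authors as 1 table of CPM per library, for 23382 symbols in 28 libraries. Total RNA was extracted with Trizol and RNeasy, and per the labels' protocols KO and Cre control libraries were made with a TruSeq stranded kit; the kit of the other groups, the read counter, strand handling and annotation are not given in the sources used here. STAR and mm10 are named per the submitters' processing notes. All values (100%) were whole reads within 0.01 of a read, so reads were recovered for count tests.

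log2(CPM + 1) was fitted with limma 3.58.1 in R 4.3.3 (mean-variance trend, robust), for genes that reached 1 CPM in at least the number of libraries of the fit's smallest group. Tests were two-sided, adjusted over all tested genes by Benjamini-Hochberg, and called below 0.05. The pseudocount of 1 makes differences of low genes too small. Each allele had its own fit; differences of effects were contrasts of 4 groups. Alternatives were CPM over reads on listed genes, TMM, a pseudocount of 0.1, no filter on low values, edgeR 4.0.16 and DESeq2 1.42.0 on recovered reads, a replicate block, 1 fit of 6 groups, Xist status, and leaving out each library. Scripts were tested on simulated data.

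The genes and lists were chosen with earlier results of these data known. Named list genes were the called members of an allele comparison (at most 4, by size of change) or, with none called, up to 2 with the largest change; Bcl2 and Atr in D370Y, Ep300 and Trp53 in ImuBcl6 D370Y, values of Irf4, Prdm1 and Ccnd2 in further comparisons, and the marker genes singled out were added after their values were seen. The value of 1 list gene that the rule names is not reported here. Likeness used the 5 genes with the highest r, without predicted gene models. Coordinates are from GENCODE M21 and promoter windows from RefSeq. In the marker lists Ighd and Hbb-bt were not used here.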

Additional observations from a re-analysis of the deposited data

Results flagged for a closer look

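The gap of the highest or lowest library was tested in the 5 groups of 5 libraries, and not in WT, which has 3. In the groups tested, none of Bcl6, Bach2 and Bcor had a library past the limit. Among 145 groups of values over 29 named genes, 11 held a library whose gap to the others passed Dixon's 95% value, and chance gives about 1 in 20 groups. In D370Y cells, Bcl2 was at 22.7 CPM in replicate 4 (the others 15.1 to 16.8), Gpr183 at 37.1 CPM in replicate 4 (28.8 to 30.7) and Cebpb at 3.06 CPM in replicate 2 (2.19 to 2.43). In ImuBcl6 D370Y cells, Foxo1 was at 139.6 CPM (163.6 to 168.5) and Cdkn1b at 13.3 CPM (10.6 to 11.3) in replicate 3, and Nfe2l1 at 79.9 CPM in replicate 1 (87.8 to 89.6). In ImuBcl6 cells, replicate 1 had Cbx8 at 5.44 CPM (7.89 to 8.45) and Nfe2l1 at 81.2 CPM (90.6 to 93.7). KO replicate 3, the library with 64.4% of its denominator on listed genes, was lowest for Cbx8 at 9.10 CPM (13.9 to 14.9), Gps2 at 70.1 CPM (102.2 to 108.9) and Nfe2l1 at 66.5 CPM (86.8 to 94.6).

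Among the named genes, contrasts between effects passed for Ccnd2. Sex and genotype cannot be told apart in the D370Y effects that enter them. The D370Y effect with ImuBcl6 minus that without was -0.98 ± 0.22 (SE, log2, limma adjusted p = 0.0494), and the KO effect minus the D370Y effect was -1.32 ± 0.18 (adjusted p = 0.000453).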

How the results depend on the processing

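Over settings other than leaving out a library, 276 values of Bcl6, Bach2, Bcor and the gene counts kept their direction and side of the threshold, and 30 counts moved, 17 values lost a call, 7 gained one and 6 changed sign; the cause was not tested. Bcl6 in ImuBcl6 D370Y against ImuBcl6 was -0.22 (adjusted p = 0.0520) with CPM over reads on listed genes, -0.24 (0.0557) with no filter, -0.22 (0.0506) with edgeR, -0.24 (0.0506) with the replicate block and -0.24 (0.210) in the fit of 6 groups with Xist status. Bcor there was -0.27 (0.0528), -0.29 (0.0703), -0.27 (0.0519), -0.29 (0.0523) and -0.25 (0.329) in the same order, and -0.29 (0.0840) in the fit of 6 groups. Leaving out 1 library gave -0.27 to -0.20 for Bcl6, -0.35 to -0.24 for Bcor and -0.44 to -0.24 for Bach2. Bcl6 in D370Y against WT changed sign without a call, at 0.033 with listed genes, 0.0098 with TMM, 0.014 with edgeR and 0.012 with DESeq2 (-0.039 to 0.031 without 1 library), Bcor in KO against Cre control was 0.0017 with TMM, and Bcl6 there was -0.0003 to 0.081 without 1 library. Bach2 in the D370Y effect with ImuBcl6 minus without was 0.26 in the fit of 6 groups with Xist status, where Gps2 (0.071) and Mta3 (0.0057) in D370Y against WT also changed sign; Hdac4 there was -0.12 to 0.014 without 1 library. Bach2 in the KO effect minus the D370Y effect was -0.069 to 0.11 without 1 library.

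For ImuBcl6 against WT, Bcor passed at 0.22 with listed genes (adjusted p = 0.0290), 0.21 with TMM, 0.21 with edgeR, 0.20 with DESeq2 and 0.24 with the replicate block, and without 1 library it was 0.15 to 0.25, with 2 of 8 such fits past the threshold. Bach2 passed at -0.33 in the fit of 6 groups (0.0491) and -0.56 with Xist status (0.0132), with -0.43 to -0.23 without 1 library. For ImuBcl6 D370Y against D370Y, Bcor did not pass at -0.19 with TMM, -0.24 with no filter (0.0501), -0.19 with edgeR, -0.18 with DESeq2 and -0.20 with Xist status (-0.31 to -0.19 without 1 library), nor Bach2 at -0.30 with Xist status (0.192). Bcor in Cre control against WT was 0.075 to 0.23 without 1 library, and passed without Cre control replicate 1 (0.0379).

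Genes called in D370Y against WT numbered 376, with 219 without the filter, 659 with DESeq2, 764 with the block, 249 in the fit of 6 groups and 35 with Xist status, and 124 to 473 without 1 library (149, 148 and 124 without WT replicates 1, 2 and 3). In ImuBcl6 D370Y against ImuBcl6 the 882 became 1378 with DESeq2, 277 with Xist status and 434 to 1016 without 1 library (546 and 501 without ImuBcl6 D370Y replicates 2 and 3, 434 without ImuBcl6 replicate 3). In KO against Cre control the 146 became 236 with listed genes, 243 with TMM, 86 without the filter, 238 with edgeR, 455 with DESeq2, 279 in the fit of 6 groups, 407 with Xist status in it, and 87 to 449 without 1 library (449 without KO replicate 3, 87 and 90 without Cre control replicates 2 and 3). In ImuBcl6 D370Y against D370Y 3143 were called with Xist status. For the difference of the D370Y effects (74), 49 were called without the filter, 184 with DESeq2, 133 with the block, 4 with Xist status and 31 to 110 without 1 library. For the KO minus D370Y effects (16), 9 were called with TMM (3 higher and 6 lower, against 3 and 13), 5 with edgeR, 43 with DESeq2, 64 with the block, 6 in the fit of 6 groups with Xist status, 9 with Xist status as a term and 7 to 63 without 1 library. For the KO minus ImuBcl6 D370Y effects (13), 23 were called with TMM (18 higher and 5 lower, against 8 and 5), 7 with a pseudocount of 0.1, 76 with DESeq2, 27 in the fit of 6 groups, 21 with Xist status and 6 to 36 without 1 library.

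The labels do not say whether the replicate numbers pair the libraries. Same-numbered libraries had correlations of -0.32 to 0.57. Differently numbered ones were not compared, so these values cannot decide it, and the replicate block rests on a shared number only. With it, Cdkn2a in ImuBcl6 D370Y against ImuBcl6 passed (adjusted p = 0.0286). Depth limits no value of Bcl6, Bach2 or Bcor. The number of libraries, at 3 to 5 per group, limits the precision.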
